A study of Gallus gallus with 4 samples.

Results

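A set of 91 array probes read at least 2-fold lower in a DT40 line that expresses OsTIR1 than in parental DT40, both with and without auxin. They were chosen by that difference. A probe had to be well above background on all 4 arrays by the scanner software's call, to carry an identifier other than a RefSeq (NM_) or chicken microRNA (gga-) name, and to have a log2 level at least 1 lower in the OsTIR1 line in both comparisons. Of 42034 probes on the array, 19162 met the conditions on signal and identifier and are called eligible here, and 91 of these (0.475%) were lower in both. The line difference is therefore a description of the 91 probes, and no test of it is given.

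The samples were 4 cultures, 1 per group, so no value has a replicate. The groups were DT40 stably expressing OsTIR1 with 500 µM indole-3-acetic acid (IAA), the same line without IAA, parental DT40 with 500 µM IAA, and parental DT40 without IAA. All were harvested at 6 h, and total RNA was labelled with Cy3 and hybridised to 1-colour Agilent arrays. The sources used here do not say whether the untreated cultures received ethanol, the solvent of IAA, whether the OsTIR1 line is 1 clone or which promoter drives the transgene. The 4 arrays lay on 1 slide with 1 scan start time, so the place on the slide and the group cannot be told apart.

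DT40 is a B cell line from a chicken bursal lymphoma and is widely used for gene targeting because it recombines introduced DNA efficiently into its genome. OsTIR1 is the rice TIR1 protein, an F-box protein that joins an SCF ubiquitin ligase. In plant cells auxin binds TIR1 and lets it capture the AUX/IAA repressors, which are then ubiquitinated and degraded, so that auxin-responsive genes are switched on. Animal cells have the SCF partners of TIR1 but no TIR1 of their own, and the study asked whether auxin changes gene expression in them. A difference between the lines that is present with and without IAA separates the cultures of the 2 lines and not the auxin treatment.

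The 91 probes cannot be given gene names here. The array files identify each by a sequence or cluster identifier, and none of the 91 matched the RefSeq name table of assembly GRCg7b. None of the eligible probes matched it either, since the condition on identifiers left out RefSeq names. Identifiers starting with CR made up 36 of the 91 (39.6%), against 25.3% of the eligible probes. Another 16 (17.6%) carried a TC number, the name of an assembled cluster of expressed sequence tags, against 17.3% of the eligible probes. BU identifiers made up 13 (14.3% against 18.3%), BX 7 (7.69% against 11.7%), CO 5 (5.49% against 3.16%), AJ 4 (4.40% against 8.91%) and CD 3 (3.30% against 0.553%). The other 7 carried AF, AB, CN, U or X identifiers or an Agilent design name. A further probe, NM_001031473, had differences of -1.07 with IAA and -1.30 without IAA and was left out by the condition on RefSeq names. A list of 44 gene symbols held markers of cell types and SCF partners of TIR1. The array names 3 of them, RAG1, TLR4 and VTG2. None was well above background on any array, so the B cell identity of the cultures could not be checked. No array probe carries the name of OsTIR1.

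Signal is given as processed intensity in scanner units, or as a level, the log2 of that intensity minus the log2 of the array's own 75th percentile. That percentile was 168 and 171 intensity units in the OsTIR1 line with and without IAA and 168 and 177 in parental DT40. Differences between lines are OsTIR1 minus parental at the same IAA state. More probes were well above background in the OsTIR1 line, 23306 with IAA and 24359 without IAA, than in parental DT40, with 20967 and 20086. Background read on negative control spots was lower there, at 23.0 and 25.5 intensity units before subtraction in the OsTIR1 line against 30.5 and 39.0 in parental DT40. Raw background around the 91 spots had a median of 17.5 to 18.0 on every array. The probes of RAG1, TLR4 and VTG2, none well above background, had levels from -7.07 to -6.66 in the OsTIR1 line. In parental DT40 the same probes had levels from -6.13 to -5.40, so probes without clear signal can also read lower in the OsTIR1 line. None of the 91 was saturated or flagged by the software as a population outlier on any array.

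The probes covered a wide range of brightness. Median intensity of the 91 was 28.3 and 28.4 in the OsTIR1 line with and without IAA, against 110 and 119 in parental DT40. Their median level was -2.57 and -2.59 in the OsTIR1 line, against -0.61 and -0.57 in parental DT40. The eligible probes had median levels from 0.30 to 0.31 on the 4 arrays. On both parental arrays 33 of the 91 stood above the array's 75th percentile. Of these, 11 also stood above it on both OsTIR1 arrays and 21 were below it on both. With the eligible probes split into 4 equal bins by parental level, 29 of the 91 lay in the dimmest bin, 34 in the next, 23 in the third and 5 in the brightest. Split by level in the OsTIR1 line, 59 lay in the dimmest bin, 23 in the next, 9 in the third and 0 in the brightest.

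The line difference had a median of -1.54 with IAA and -1.58 without IAA over the 91 probes, against medians of 0.01 and 0.00 over the 19162 eligible probes. Taking the smaller of each probe's folds, 54 of the 91 were from 2-fold to 3-fold lower, 17 from 3-fold to 4-fold, 12 from 4-fold to 8-fold, 7 from 8-fold to 16-fold and 1 more than 16-fold. With IAA 140 eligible probes (0.731%) were at least 2-fold lower in the OsTIR1 line, and without IAA 196 (1.02%). The mirror rule found 54 eligible probes (0.282%) that were 2-fold higher or more with and without IAA. The lower ones were thus 62.8% of the 145 probes that passed in either direction. This share depended on the processing. It fell to 53.1% with median scaling and 50.9% with normexp background correction. Cyclic loess raised it to 66.9%, while the series values put it at 62.3% and quantile scaling at 61.5%. With median scaling the median line difference of all eligible probes was 0.06 with IAA and 0.11 without IAA, against 0.01 and 0.00 with the 75th percentile. The filter on signal also treats the 2 directions unequally. The lowest level called well above background was -4.78 with IAA and -4.91 without IAA in the OsTIR1 line, against -4.01 and -3.62 in parental DT40. A probe could therefore be dimmer in the OsTIR1 line than in parental DT40 and still be eligible. The part of this in the split was not tested.

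BU322203 had the largest difference of all eligible probes. Its intensity was 11.4 and 11.5 in the OsTIR1 line with and without IAA, against 850 and 805 in parental DT40, that is 74.3-fold and 67.8-fold lower. With normexp background correction, which adds an offset of 50 to every signal, it was 14.4-fold and 13.3-fold lower. In the OsTIR1 line it lay near the lowest intensity called well above background, which was 6.12 with IAA and 5.71 without IAA, while on the parental arrays its level was 2.34 and 2.19. On the parental arrays the lowest intensity so called was higher, at 10.4 with IAA and 14.3 without IAA. With the normexp correction 29 of the 44 line differences of named probes, 2 per probe, were over 1.5 times smaller as folds, and the 8 probes over 8-fold lower ranged from 2.30-fold to 14.4-fold lower.

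The 7 probes from 8-fold to 16-fold lower differed in how much signal was left. CR406461 read 123 and 97.3 in the OsTIR1 line with and without IAA, against 1690 and 1757 in parental DT40, 13.7-fold and 17.5-fold lower. CR353495 read 88.4 and 88.9 in the OsTIR1 line, against 1154 and 1154 in parental DT40, 13.0-fold and 12.6-fold lower. These were among the brighter probes of the array in parental DT40, and in the OsTIR1 line both remained far above the detection limit. CR407473 read 35.7 and 39.1 in the OsTIR1 line, against 324 and 325 in parental DT40. CR390927 read 25.6 and 29.5 in the OsTIR1 line, against 247 and 261 in parental DT40. Both were 8-fold to 10-fold lower, with little spread between the arrays of a line.

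The other 3 of the 7 were dim in the OsTIR1 line. CR352358 read 12.8 and 13.2 in the OsTIR1 line with and without IAA, against 184 and 201 in parental DT40, 14.5-fold and 14.7-fold lower. CO635521 read 13.0 and 23.1 in the OsTIR1 line, against 204 and 198 in parental DT40, 15.7-fold and 8.29-fold lower. BX933200 read 9.35 and 14.1 in the OsTIR1 line, against 121 and 126 in parental DT40, 12.9-fold and 8.65-fold lower. In CO635521 and BX933200 the pair of OsTIR1 arrays lay farther apart on the log2 scale than the pair of parental arrays.

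The 12 probes from 4-fold to 8-fold lower had mean intensities from 8.67 to 393 in the OsTIR1 line, median 47.4, against 60.8 to 1650 in parental DT40, median 230. TC224129 read 95.2 and 99.7 in the OsTIR1 line with and without IAA, against 701 and 742 in parental DT40. CR389682 read 9.39 and 7.96 in the OsTIR1 line, against 59.6 and 62.0 in parental DT40. TC197597 read 16.2 and 18.5 in the OsTIR1 line, against 95.1 and 113 in parental DT40. In each case the arrays of a line lay much nearer to each other than to the other line, which naming by size of line difference favours. CR391136, with 237 and 234 in the OsTIR1 line against 1225 and 1377 in parental DT40, was 5.17-fold and 5.71-fold lower and bright on all 4 arrays. TC224129 and BU210053, with 26.5 and 21.4 in the OsTIR1 line against 113 and 119 in parental DT40, occupy neighbouring spots in row 425, columns 74 and 73, the 1 such pair among the 91, and BU210053 was picked for this after its values were seen. Both lie in a part of the surface where the untreated parental array was bright.

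The 6 probes with the highest parental level were strongly lit there and kept a clear signal in the OsTIR1 line. CR407016 read 615 and 610 in the OsTIR1 line with and without IAA, against 1755 and 1945 in parental DT40. AJ721035 read 409 and 377 in the OsTIR1 line, against 1668 and 1633 in parental DT40. BX267991 read 373 and 355 in the OsTIR1 line, against 1495 and 1434 in parental DT40. These 3 were 2.85-fold to 4.20-fold lower across both comparisons. AF077369, with 328 and 338 in the OsTIR1 line against 1437 and 1339 in parental DT40, was 4.38-fold lower with IAA and 3.84-fold lower without it. CR386288 read 517 and 495 in the OsTIR1 line, against 1299 and 1305 in parental DT40, and CR406461 completes the set. At such brightness the nominal 95% interval from the software's spot errors is 0.40 on the log2 scale to either side, which covers no variation between cultures.

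The 54 probes from 2-fold to 3-fold lower had the lowest parental median of the sets by fold. Their mean intensities in parental DT40 ran from 19.4 to 1850, median 66.7. In the OsTIR1 line they ran from 7.69 to 613, median 27.1, near the median of 27.6 for those from 8-fold to 16-fold lower. The 17 from 3-fold to 4-fold lower ran from 8.51 to 364 in the OsTIR1 line, median 31.4, against 35.2 to 1465 in parental DT40, median 113. On both OsTIR1 arrays 11 of the 91 lay within 2-fold of the lowest level called well above background, 6 of them from 2-fold to 3-fold lower, and 71 lay within 2-fold of it on neither array.

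Some probes lay close to the threshold on either side. Just inside it, AJ720096 had differences of -1.0004 with IAA and -1.02 without IAA, CR524160 -1.64 and -1.02, TC227333 -1.12 and -1.02, and CR385249 -1.03 and -1.05. Just outside it, CR407168 had -0.998 and -1.03, BX931759 -1.10 and -0.995, TC198461 -1.08 and -0.98, and TC218407 -0.98 and -1.05. Of these, CR407168 is bright, at 925 and 890 in the OsTIR1 line against 1848 and 1872 in parental DT40.

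The line difference of the 91 probes differed between the IAA states by a median of 0.14 over the 91 probes, against 0.11 over the eligible probes. It was the larger with IAA for 45 of the 91 and the larger without IAA for 46. In 84 of the 91 (92.3%) the difference moved by at most 0.5 on the log2 scale, as it did in 94.9% of the eligible probes. All 7 others lay in the dimmest bin by level in the OsTIR1 line, and 5 of them also in the dimmest bin by parental level. The smaller line difference was larger than either IAA difference for all 91, and in 78 of the 91 the lower parental array stood at least 2-fold above the higher OsTIR1 array. The choice of probes favours both counts, since it used the same 4 values. Neither was counted over the eligible probes, so they say nothing beyond that choice.

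With IAA, 0 of the 91 probes were 2-fold different in either line. The choice of probes set no threshold on this contrast but used the same 4 arrays, and a probe with a large response in 1 line could miss the threshold in 1 comparison, so the counts are a description. Of the eligible probes, 0.125% were 2-fold different with IAA in the OsTIR1 line and 0.423% in parental DT40. In the OsTIR1 line the IAA difference, treated minus untreated, ran from -0.81 to 0.48 over the 91, with a median of 0.02, against a median of 0.00 over the eligible probes. In parental DT40 it ran from -0.82 to 0.50, with a median of -0.01, against -0.01 over the eligible probes. In the OsTIR1 line 45 of the 91 (49.5%) were lower with IAA, against 50.2% of the eligible probes. In parental DT40 47 (51.6%) were, against 52.7%, so both shares were near those of all eligible probes.

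At 1.5-fold, 2 of the 91 (2.20%) differed with IAA in the OsTIR1 line, where 0.757% of the eligible probes did. They were CO635521, at -0.81 (nominal 95% interval -1.42 to -0.20), and CR524160, at -0.69 (-1.44 to 0.06), with 6.25 and 10.3 intensity units in the OsTIR1 line with and without IAA. In parental DT40 the 1 such probe was AJ395683, at -0.82 (-1.40 to -0.24), where 1.85% of the eligible probes differed. Its intensity was 10.0 and 8.75 in the OsTIR1 line with and without IAA, against 21.1 and 39.1 in parental DT40. It lies in a part of the surface where the untreated parental array was bright. All 3 were dim on the arrays that set their difference, and none was 1.5-fold different in the other line.

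The IAA differences of the 91 were more spread in the OsTIR1 line, with a median size of 0.14 against 0.08 over the eligible probes. In parental DT40 the median size was 0.11 against 0.08. The 91 were also dimmer than the eligible probes, most of all in the OsTIR1 line. Among the 91, the 46 brighter ones by parental level had a median size of 0.10 in the OsTIR1 line and 0.07 in parental DT40, and the 45 dimmer ones 0.22 and 0.13. The part of brightness in the wider spread was not tested.

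A limma fit with line and IAA terms over 23100 probes takes each line as 1 repeat of the treatment and leaves 1 residual degree of freedom. Its IAA term called 0 of the 91 probes at an adjusted p under 0.05, and 0 of all 23100 (0%), with a smallest adjusted p of 0.955 in both. At an unadjusted p under 0.05 it found 10 of the 91 (11.0%), where 1125 of all probes (4.87%) passed. Of the 10, 5 were higher and 5 lower with IAA, 0.22 to 0.45 in size. The residual of this fit comes from the difference between the line differences with and without IAA. The choice of probes used the same line differences, so the counts for the 91 are not independent of that choice. With a trended and robust prior the fit called 8 of all 23100 probes (0.0346%) and with normexp 7 (0.0303%), and 0 of the 91 in both. With no replicate of any group, a p that misses the threshold does not show that the probes did not respond.

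The untreated parental array was bright in 2 adjoining parts of its surface, of 16. Among probes not above background on the OsTIR1 arrays or the treated parental array, 11.8% and 11.2% were lit on this array there, against at most 1.89% elsewhere. These parts held 13 of the 91 probes (14.3%) and 12.3% of the eligible probes. The 78 probes outside them had a median line difference of -1.53 with IAA and -1.59 without IAA, against -1.54 and -1.40 for the 13 inside. Of the 8 probes over 8-fold lower, 0 lay in these parts.

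Probes with consecutive identifiers were compared as well, which was decided with the values in view. For 45 of the 91 the array holds the next identifier above or below. Among these neighbours 42 were eligible and not among the 91. Their line differences had medians of -0.01 with IAA and -0.01 without IAA, against 0.01 and 0.00 over all eligible probes. They ranged from -0.57 to 1.01 with IAA and from -0.80 to 0.92 without IAA. Since the 91 were left out, none of the 42 could be 2-fold lower in both comparisons, so these values are no support for the choice. Whether consecutive identifiers belong to the same gene was not tested. Neighbours not well above background on all 4 arrays are not among the 42. Their differences spread wider, from -1.31 to 0.87 with IAA and from -1.55 to 1.41 without IAA. Probes without clear signal can read lower in the OsTIR1 line, as given above, and the part of this in the spread was not tested. Consecutive identifiers were both among the 91 in 1 case. How often such pairs occur among the eligible probes was not counted, so this is a description. TC214751 read 10.0 and 12.8 in the OsTIR1 line with and without IAA, against 35.7 and 32.8 in parental DT40, and TC214750 read 66.8 and 66.9 in the OsTIR1 line, against 146 and 155 in parental DT40. CR352357, the neighbour of CR352358, was 1.01 higher in the OsTIR1 line with IAA and 0.92 higher without IAA.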

How the data were processed

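The authors deposited linear spot intensities, made with Agilent Feature Extraction 10.5.1.1 from 1-colour arrays, which subtracts background and detrends the surface, per the file headers; the grid names build galGal2. Control spots (1417 of 43451 per array) were left out. Levels are log2 intensity minus the log2 75th percentile of the array, as computed here with Python 3.11.15 and pandas 2.3.3. The deposited series table holds the same intensities times a near-constant per array, 4.55 and 4.52 for the OsTIR1 line with and without IAA and 4.63 and 4.40 for parental DT40, with column medians of 55.9, 60.5, 58.8 and 65.6; its linear scale and direction follow from that match, and the reason for the constants is unknown.

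limma 3.58.1 in R 4.3.3 was fitted with a line and an IAA term to 23100 probes, those above background on 2 arrays or more, with Benjamini-Hochberg adjustment. The limma script was tested on simulated data. The outcome is not given here, so this is no support for the counts it called. With 1 array per group no spread between replicates is known, and the number of arrays limits precision. Normexp used the median spot signal, since the files used here hold no mean signal column. Alternatives were median, quantile and cyclic loess scaling, normexp with offset 50, the series table, other filters and thresholds, and leaving out the bright parts of the surface. Probes were named by rule: the 12 with the largest mean line difference, the 6 brightest in parental DT40, 4 on either side of the threshold and those 1.5-fold different with IAA. The 91 probes, the lists and the rules were chosen with earlier results of these data known.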

Additional observations from a re-analysis of the deposited data

Results flagged for a closer look

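Outside the 91 probes, 37 probes with the same kinds of identifier were well above background on both parental arrays and on neither OsTIR1 array, so that they have only a bound there. The comparisons above do not use them, and whether a count of 37 is unusual was not tested. All 37 were at least 2-fold lower in the OsTIR1 line in both comparisons by that bound. The bound divides the parental signal by the OsTIR1 signal, or by the lowest signal called well above background on that OsTIR1 array where this is higher. That lowest signal was 6.12 and 5.71 on the OsTIR1 arrays with and without IAA, against 10.4 and 14.3 on the parental arrays. The choice of the 37 therefore largely sets the 2-fold count. The mirror count, of probes above background in the OsTIR1 line only, was not made. More probes in all were above background in the OsTIR1 line, 23306 with IAA and 24359 without IAA. In parental DT40 the numbers were 20967 and 20086. These totals do not show whether the 37 stand out, since the mirror count was not made. BX936126 read 8.48 and 8.12 in the OsTIR1 line with and without IAA, not well above background, against 244 and 244 in parental DT40, at least 28.7-fold lower with IAA and at least 29.2-fold lower without IAA. CR352900 read 1.48 and 2.41 in the OsTIR1 line, against 170 and 171 in parental DT40, at least 27.9-fold and at least 29.0-fold lower. Of the 37, 7 lie in the bright parts of the untreated parental array, BX936126 among them.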

How the results depend on the processing

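The 91 probes were lower in the OsTIR1 line in both comparisons under every scaling and background correction tried. Each was chosen as at least 1 lower, and the median line difference of all eligible probes stayed between -0.02 and 0.11. The choice of probes therefore nearly sets this sign, here and for the named probes below, and it is no independent support. Of the 91, median scaling left 78 past 2-fold in both, quantile normalization 86, cyclic loess 91 and the deposited series values 90, and 78 lie outside the bright parts of the surface. Normexp with offset 50 left 27. The median line differences over all 91 were then -0.81 with IAA and -0.77 without IAA; the offset is added to every signal, and the 27 had a median parental intensity of 589 against 64.1 for the other 64. Applying the rule anew gave 250 probes when any positive and significant signal was accepted, 1090 with no filter on dim probes, 314 at 1.5-fold and 37 at 3-fold. The count of the 91 that were 1.5-fold different with IAA was 0 under normexp in both lines. In parental DT40 it was 5 with median scaling and 0 without the bright parts, against 1. limma called 0 of the 91 for IAA in all 7 settings, with 4 to 15 at an unadjusted p under 0.05, where 4.68% to 7.96% of all probes passed; the 15 were with median scaling, at 7.96%. Normexp moved 36 of the 44 line differences of named probes by more than the software's error, and the 3 other scalings and the series values moved 0 of 44 each; none changed sign. The spread between cultures is not known, and dim probes near the detection limit carry the widest spot errors. The IAA term of limma pairs the arrays by line.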
